A study of Mus musculus with 6 samples.

Results

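Histone acetyltransferases, histone deacetylases and sirtuins were examined in RNA-seq of O4-positive cells from mice lacking Npc1, the lysosomal cholesterol transporter that is lost in Niemann–Pick C disease. The set holds 30 genes, taken by symbol from the 55492 genes of the expression table: 11 zinc-dependent deacetylases, 7 sirtuins, 10 acetyltransferases and 2 nuclear receptor coactivators. Cells were pulled from whole brains of mice at age 16 days (P16) with magnetic microbeads against O4, a surface lipid of late oligodendrocyte progenitors and immature oligodendrocytes. Each of 3 WT and 3 Npc1-/- mice gave 1 library of poly(A) RNA, and the question was how expression in these cells differs between the genotypes. The Npc1-/- mice carry the Npc1nih allele in every cell, on an F1 hybrid background of BALB/cJ and C57BL6/J, and the WT mice were littermates. No animal was treated, and the beads enrich O4-positive cells without a further sort.

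Acetyl groups on histone tails loosen chromatin and are read by bromodomain proteins at active genes. Acetyltransferases add them from acetyl-CoA, zinc-dependent deacetylases of classes I, II and IV remove them, and sirtuins remove them in a reaction that consumes NAD+. In the oligodendrocyte lineage, removal of acetyl groups by Hdac1 and Hdac2 is known to be needed for progenitors to differentiate, and Sirt2 is an abundant protein of myelin. Hdac3, the deacetylase of the NCoR and SMRT corepressors, is known to favour oligodendrocyte over astrocyte fate.

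The expression values are TPM, which add up to a fixed total in a sample and are set per transcript length, so that levels of different genes can be compared. Each sample's TPM was divided by a size factor (median of ratios, between 0.727 and 1.3), since Mbp alone held 18.8% to 26.1% of all TPM, and the result is called scaled TPM here. The libraries held an estimated 40750000 to 50500000 fragments. Npc1 had a scaled TPM of 41.1, 45.5 and 43.9 in WT and 3.72, 5.17 and 4.35 in Npc1-/- mice, so every library matched its genotype label. Mature oligodendrocyte markers summed to a scaled TPM of at least 175570 in every library. The progenitor list summed to 1099 to 1257 in WT and 1042 to 1289 in Npc1-/- mice. It also holds Olig1, Olig2 and Sox10, which are not limited to progenitors. Markers of other cells were found too. Endothelial markers came to 1057 to 1244 in WT and 543 to 866 in Npc1-/- mice, and astrocyte markers to 764 to 835 and 489.8 to 950.3. Microglial markers came to 256 to 386 in WT and 123 to 238 in Npc1-/- mice, and neuron markers to 113 to 155 and 179 to 219. A single library stood apart in sex: Xist was at 15.6 TPM in Npc1-/- replicate 3 and at most 0.01 in the others. In these bulk samples, fewer cells of a type and less RNA per cell cannot be told apart.

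Promoter windows from RefSeq (GRCm38.p6, 250 bases before to 50 after the annotated start) were at hand for 25 of the 30 genes. Hdac1, Hdac3, Hdac10, Kat6a and Ncoa3 had none. The windows of Sirt2, the gene with the highest level, Hdac11, the gene with the largest excess in Npc1-/- mice, and Ncoa1, among those with lower values there, are shown to let their base composition be seen, 5′ to 3′ on the gene's strand. Capitals mark GGGCGG, the letters of the GC box, or its reverse complement.
Sirt2 promoter: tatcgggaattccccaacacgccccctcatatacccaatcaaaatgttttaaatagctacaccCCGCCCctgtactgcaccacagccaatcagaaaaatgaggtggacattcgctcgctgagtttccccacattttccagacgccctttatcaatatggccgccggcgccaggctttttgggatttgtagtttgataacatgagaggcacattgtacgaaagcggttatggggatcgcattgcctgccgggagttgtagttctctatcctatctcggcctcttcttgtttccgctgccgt
Hdac11 promoter: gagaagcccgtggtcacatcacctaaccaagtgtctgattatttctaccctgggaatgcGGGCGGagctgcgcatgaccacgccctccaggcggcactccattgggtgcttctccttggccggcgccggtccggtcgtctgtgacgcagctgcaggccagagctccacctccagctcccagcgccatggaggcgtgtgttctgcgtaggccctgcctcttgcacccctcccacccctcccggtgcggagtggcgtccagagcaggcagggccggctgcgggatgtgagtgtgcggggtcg
Ncoa1 promoter: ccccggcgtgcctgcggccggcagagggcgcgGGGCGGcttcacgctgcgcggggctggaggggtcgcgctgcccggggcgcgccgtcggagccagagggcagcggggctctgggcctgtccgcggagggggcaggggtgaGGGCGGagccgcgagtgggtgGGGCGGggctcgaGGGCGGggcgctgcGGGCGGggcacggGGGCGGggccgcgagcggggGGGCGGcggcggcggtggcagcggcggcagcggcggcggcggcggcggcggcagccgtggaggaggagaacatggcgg
The Sirt2 window lies at chr7:28766502-28766801 on the plus strand, that of Hdac11 at chr6:91156565-91156864 on the plus strand and that of Ncoa1 at chr12:4477133-4477432 on the minus strand.

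The 3 windows differ in composition. Ncoa1 held 7 GC boxes and 49 CpG in 300 bases, while Hdac11 held 1 GC box and 22 CpG, and Sirt2 held 1 GC box and 16 CpG. Over all 35 windows of the set, the median was 20 CpG (range 0 to 49), against 7.0 over all 32851 windows in the table. GGGCGG on either strand was found in the windows of 19 of 25 genes (21 of 35 windows), and in 35.7% of all windows. CACGTG, the E-box letters bound by basic helix-loop-helix factors, was found in 4 of 35 windows (Hdac5, Sirt1, Hat1 and Kat5), and in 7.15% of all windows. ACAAAG, the core letters bound by Sox factors, was found in 6 of 35 windows (6 of 25 genes), and in 18.7% of all windows. No letters of these motifs overlap with another in the windows printed, and no binding was measured.

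All 30 genes were expressed and passed the filter of a mean TPM of at least 0.5. The lowest estimate for a gene in any sample was 190 fragments, from FPKM and the longest annotated transcript. Such an estimate is too high where shorter transcripts prevail. The sirtuin Sirt2 exceeded all others, with a scaled TPM of 2329, 3036 and 2928 in the 3 WT mice. It ranked above 99.8% of the genes tested and made up 97.8% ± 0.455 (SD, n = 3) of the summed sirtuin TPM in WT and 96.9% ± 0.260 in Npc1-/- mice. The next levels were those of the class IIa deacetylase Hdac5 at 61.3 ± 7.41 (SD, n = 3), Hdac2 at 43.1 ± 3.94 (SD, n = 3) and Hdac11 at 32.5 ± 6.26 (SD, n = 3). These first 4 genes were apart from each other in WT, that is, every sample of 1 gene lay above every sample of the next. Further down the order, neighbours mostly overlapped, and 7 of 29 neighbouring pairs were apart.

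By level in WT, 9 genes were above a scaled TPM of 20, 14 lay between 5 and 20, and 7 were below 5. The lower group held Hdac6 and Hdac10 (class IIb), Hdac4 and Hdac9 (class IIa), Sirt1, Sirt5 and Crebbp, and the lowest of them, Sirt5, still lay above 31.7% of the genes tested. Within pairs of close relatives, Hdac5 was 12.6 to 20.3 times the level of Hdac4 in WT mice, and Ep300 was 1.88 to 2.15 times that of Crebbp. The GNAT enzyme Kat2b was above its relative Kat2a, at 27.3 ± 2.97 (SD, n = 3) against 13.1 ± 0.653 (SD, n = 3). The order of the levels was close to the same in Npc1-/- mice (Spearman's rho across the 30 genes 0.969, a description, since all genes share the same libraries). The largest shift was by 7 places, for Sirt4.

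**Figure D1:**
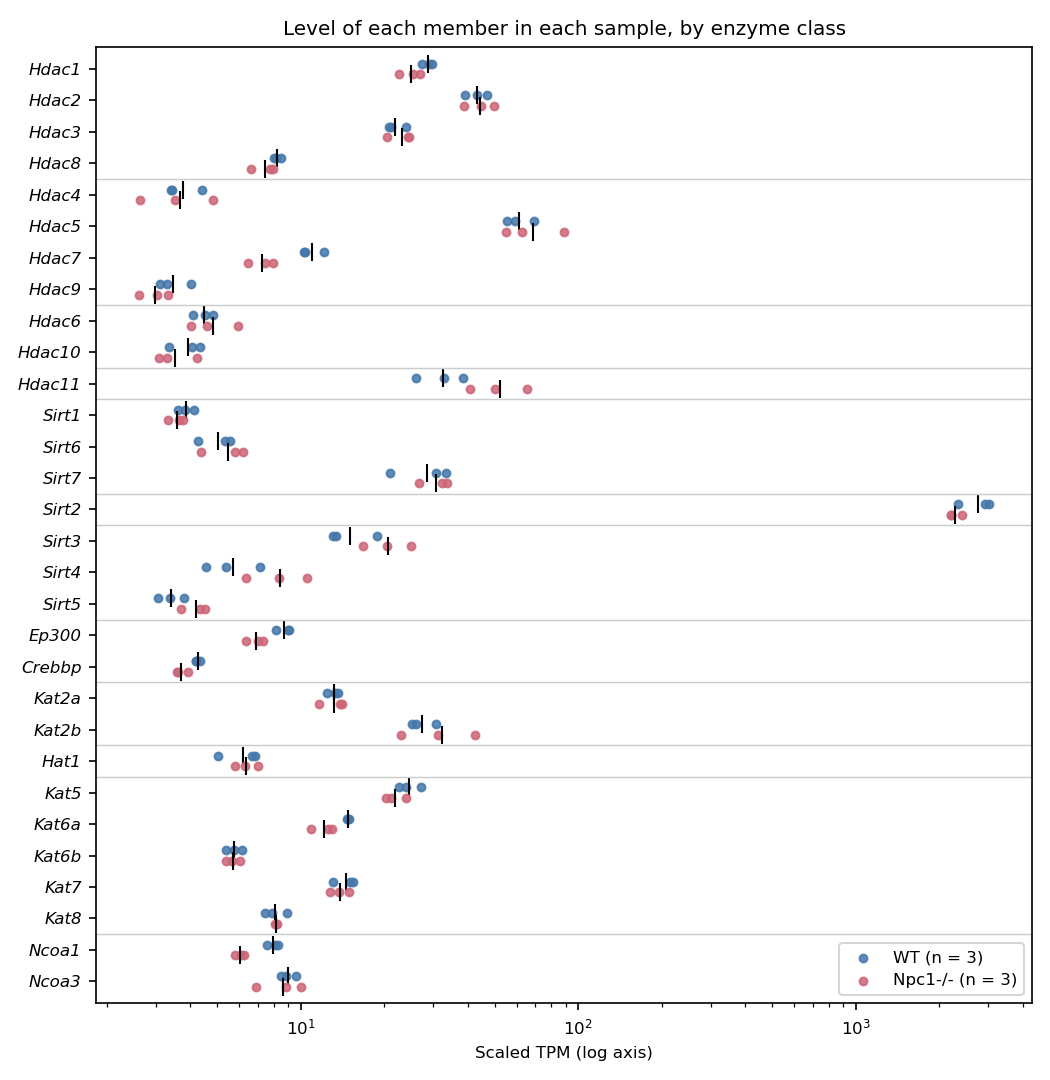
Scaled TPM (log axis) of each of the 30 genes in 3 WT mice (blue) and 3 Npc1-/- mice (red), a point for each mouse, with the group mean as a bar and grey lines between enzyme classes. Sirt2 lies far to the right of all other genes in every mouse, at 2198 or more, while the next gene, Hdac5, reaches 88.6.

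No gene of the set passed the test between genotypes. The test was limma on log2(scaled TPM + 0.5), where changes of weakly expressed genes come out too small, with Benjamini-Hochberg adjustment over 15245 genes. Called genes have an adjusted p below 0.05 and differ by 0.1 or more on the log2 scale in either direction. Of the 30 genes 0 were called, beside 0.813% of all genes tested. The smallest adjusted p was 0.0623, for Hdac7. An unadjusted p below 0.05 was reached by 7 of the 30 (23.3%), beside 22.2% of all genes. The median log2 fold change (Npc1-/- against WT) was −0.035 over the set and 0.0081 over all genes tested, with 16 of the 30 below 0 and 14 above. In 7 genes every Npc1-/- mouse was below every WT mouse (Hdac1, Hdac7, Hdac8, Ep300, Crebbp, Kat6a and Ncoa1, 23.3%), beside 14.2% of all genes tested, and in 1 gene, Hdac11, every Npc1-/- mouse was above (3.33%, beside 13.3%). Directions are relative to the scaling: on TPM as deposited, without size factors, the median over all genes was −0.33, that of the set −0.37, and 27 of the 30 genes lay below 0, the exceptions being Hdac11, Sirt3 and Sirt4.

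The intervals show what size of difference these 6 mice leave room for on scaled TPM. The standard errors ran from 0.0940 to 0.216, and within a genotype the coefficient of variation of a gene had a median of 9.90%. The 95% interval of the log2 fold change lay within ±0.5 for 16 of the 30 genes and within ±1 for 28, the exceptions being Hdac11 and Sirt4. Within ±0.5 lay all of Hdac1, Hdac2, Hdac3, Hdac8 and the MYST enzymes except Kat6a. The choice of scaling is no part of these intervals. On TPM as deposited, for example, the log2 fold change of Hdac1 was −0.56 and that of Kat5 −0.53.

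**Figure D2:**
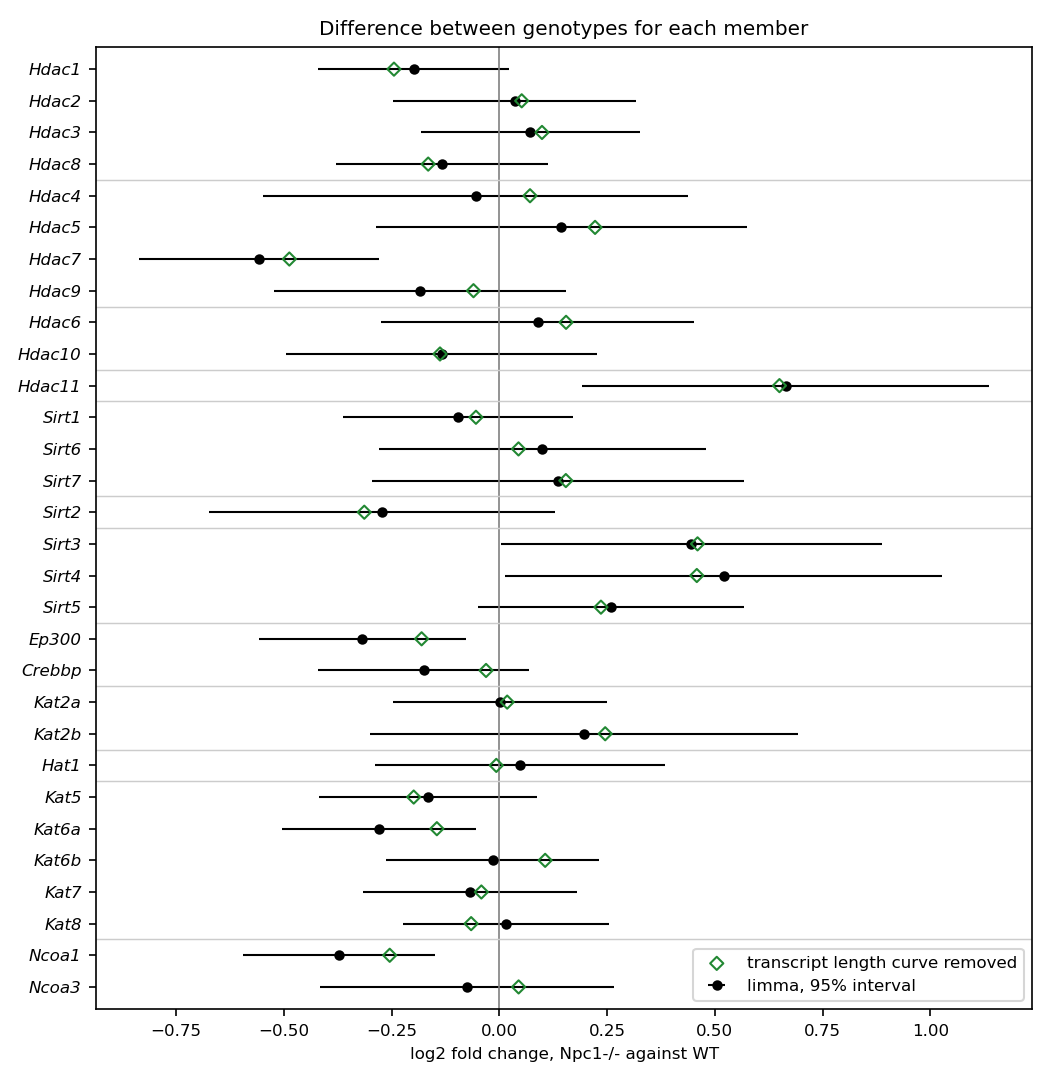
Log2 fold change of Npc1-/- against WT for each of the 30 genes by limma (black point, with its 95% interval as a line), and after a smooth trend with transcript length was taken out of every sample (green diamond). The interval excludes 0 for 7 genes, Hdac7, Ncoa1, Ep300 and Kat6a below it and Hdac11, Sirt3 and Sirt4 above it, none of which passed the adjusted threshold.

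Among class I deacetylases, which include the catalytic subunits of the nuclear Sin3, NuRD, CoREST and NCoR complexes, no gene passed the test. Hdac1 had a scaled TPM of 29.0, 29.7 and 27.4 in WT and 25.3, 27.0 and 22.7 in Npc1-/- mice, and its groups did not overlap. Its log2 fold change was −0.20 (SE 0.0940, adjusted p = 0.270 by limma). Its close relative Hdac2, with which it shares complexes, had 46.9, 43.2 and 39.1 in WT and 49.6, 44.5 and 38.6 in Npc1-/- mice, and the groups overlapped, with a log2 fold change of 0.035 (SE 0.119, adjusted p = 0.899 by limma). The ratio of Hdac1 to Hdac2, which does not depend on the scaling of a sample, was 0.617, 0.687 and 0.701 in WT and 0.510, 0.606 and 0.587 in Npc1-/- mice. All Npc1-/- ratios were below all WT ratios (exact permutation p = 0.1, the smallest that 3 against 3 mice can give).

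Hdac3 differed less than the spread between mice, at 21.9 ± 1.72 in WT and 23.1 ± 2.34 in Npc1-/- mice (SD, n = 3). Hdac8, the X-linked class I enzyme, which also deacetylates the cohesin subunit Smc3, had 7.98, 8.46 and 8.13 in WT and 6.63, 7.95 and 7.75 in Npc1-/- mice. The groups did not overlap, but the highest Npc1-/- sample was close to the lowest WT sample. Its log2 fold change was −0.13 (SE 0.105, adjusted p = 0.511 by limma), and without the Npc1-/- library that had Xist it was −0.17. Summed over the 4 genes, class I deacetylases came to 102 ± 5.35 in WT and 99.8 ± 9.01 in Npc1-/- mice (SD, n = 3), a difference smaller than either SD.

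Class IIa deacetylases shuttle between cytoplasm and nucleus and bind Mef2 factors. Hdac7 (ENSMUSG00000022475, chr15:97792664-97844502, minus strand, GRCm38), best known from blood vessel and lymphocyte development, had the smallest adjusted p of the set. Its scaled TPM was 12.2, 10.4 and 10.3 in WT and 6.44, 7.95 and 7.42 in Npc1-/- mice. Every Npc1-/- mouse was below every WT mouse, and the fitted mean was 0.679 times the WT level. The log2 fold change was −0.56 (SE 0.118, adjusted p = 0.0623 by limma), with a 95% interval of −0.84 to −0.28. With each mouse left out in turn it ran from −0.62 to −0.48, and it was −0.58 without the library that had Xist. On TPM as deposited it was −0.91 and passed (adjusted p = 0.0402 by limma). Hdac7 overlaps Slc48a1 on the other strand, and whether strand was used in counting is not given in the sources used here, so reads from the shared stretch cannot be told apart.

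Endothelial and microglial markers had the same direction as Hdac7. All 10 endothelial markers had a log2 fold change below 0, 9 of them without overlap, beside 14.2% of all genes, and their summed scaled TPM was 1057 to 1244 in WT and 543 to 866 in Npc1-/- mice. None of them was called by limma on scaled TPM with all mice, and none was at 0 in all samples. On TPM as deposited Pecam1, Tek and Flt1 passed (adjusted p = 0.0110, 0.0189 and 0.00991 by limma). Pecam1, an adhesion molecule of vessel walls, had a scaled TPM of 57.5, 62.3 and 50.2 in WT and 27.0, 31.2 and 37.2 in Npc1-/- mice. Of 10 microglial markers 9 were below 0, with sums of 256 to 386 in WT and 123 to 238 in Npc1-/- mice, and Tmem119 passed the test, with a log2 fold change of −1.44 (SE 0.219, adjusted p = 0.0442 by limma). With a mouse left out its adjusted p ran from 0.0244 to 0.184 by limma, and the call was lost without any mouse but Npc1-/- replicate 3. Astrocyte markers were below 0 for 9 of 10, with sums of 764 to 835 in WT and 489.8 to 950.3 in Npc1-/- mice. The part of these cells in the Hdac7 values was not tested.

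The other class IIa genes overlapped between genotypes. Hdac5, by far the most abundant, had 55.2, 59.1 and 69.6 in WT and 55.1, 62.9 and 88.6 in Npc1-/- mice, and its log2 fold change was 0.14 (SE 0.183, adjusted p = 0.701 by limma). A single Npc1-/- mouse, replicate 3, lay above all others, and without it the log2 fold change was −0.055. Hdac4, which binds Mef2 factors like the rest of its class, was at 3.75 ± 0.560 in WT and 3.67 ± 1.11 in Npc1-/- mice (SD, n = 3). Hdac9 was at 3.46 ± 0.479 in WT and 2.98 ± 0.356 in Npc1-/- mice (SD, n = 3), with a log2 fold change of −0.18 and an interval of −0.52 to 0.15. Hdac5 makes up most of the class, whose sum was 79.5 ± 6.76 in WT and 82.8 ± 19.0 in Npc1-/- mice (SD, n = 3).

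Class IIb enzymes act mainly outside the nucleus. Hdac6, the X-linked tubulin deacetylase, was at 4.47 ± 0.376 in WT and 4.84 ± 0.977 in Npc1-/- mice (SD, n = 3), with a log2 fold change of 0.089. Without the Npc1-/- library that had Xist it was 0.20. Hdac10, a polyamine deacetylase, was at 3.91 ± 0.499 in WT and 3.53 ± 0.597 in Npc1-/- mice (SD, n = 3). Neither differed by more than the spread between mice.

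Hdac11 (ENSMUSG00000034245, chr6:91156665-91174692, plus strand), the sole class IV deacetylase, which removes long fatty acyl groups and is known from oligodendrocytes, had the largest log2 fold change of the set in size on scaled TPM with all mice. Hdac7 and other members were further from 0 on TPM as deposited. Without Npc1-/- replicate 3, Hdac7 (−0.58) and Sirt4 (0.51) were further from 0 than Hdac11. Without WT replicate 2, Sirt4 was at 0.682 and Hdac11 at 0.678. The scaled TPM of Hdac11 was 26.1, 32.8 and 38.6 in WT and 40.9, 50.2 and 65.2 in Npc1-/- mice. Every Npc1-/- mouse lay above every WT mouse, although the highest WT value was close to the lowest Npc1-/- value. The mean was 1.58 times the WT level on the fitted scale, and the log2 fold change was 0.66 (SE 0.201, adjusted p = 0.115 by limma), with an interval of 0.19 to 1.14. With each mouse left out it ran from 0.49 to 0.83, and without Npc1-/- replicate 3, the library that had Xist and the highest Hdac11 value, it was 0.49. Hdac11 overlaps Gm14573 and Gm44002 on the other strand.

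Mature oligodendrocyte markers had the same direction as Hdac11 on scaled TPM (median log2 fold change 0.34), but not on TPM as deposited (−0.029) or by quantile normalization (−0.030), whereas Hdac11 was at 0.30 and 0.61 on those scales. On scaled TPM they were above 0 for 9 of 10, 3 of them without overlap (Aspa, Mag and Cldn11), beside 13.3% of all genes, and none was called. Their summed scaled TPM was 175570 to 247289 in WT and 221778 to 436067 in Npc1-/- mice. Mag, a myelin adhesion protein, had 1187, 1146 and 1079 in WT and 1670, 1510 and 1388 in Npc1-/- mice. Markers of committed and immature oligodendrocytes were below 0 for 8 of 9, with a median of −0.15, the exception being Bcas1, and with sums of 3154 to 4337 in WT and 4153 to 6639 in Npc1-/- mice. The progenitor list, which also holds the lineage genes Olig1, Olig2 and Sox10, was above 0 for 7 of 11 (median 0.036, and −0.34 on TPM as deposited). Neuron markers were above 0 for 11 of 12 (5 of 12 on TPM as deposited), and Nefm and Nefl passed the test (log2 fold changes 1.11 and 1.22, adjusted p = 0.0134 and 0.0185 by limma). Both lost the call without any mouse but Npc1-/- replicate 3 (adjusted p up to 0.0764 by limma), and on TPM as deposited their adjusted p was 0.0777 and 0.0441 by limma. The part of these shifts in the Hdac11 values was not tested.

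Sirt2 (ENSMUSG00000015149, chr7:28766735-28788661, plus strand), the cytoplasmic sirtuin that deacetylates tubulin and lies in the myelin sheath, had a scaled TPM of 2329, 3036 and 2928 in WT and 2212, 2198 and 2416 in Npc1-/- mice. A WT mouse, replicate 1, lay inside the Npc1-/- range. The log2 fold change was −0.27 (SE 0.171, adjusted p = 0.408 by limma), with an interval of −0.67 to 0.13, so a difference of either sign fits within it. On TPM as deposited, without size factors, the log2 fold change was −0.65 and passed (adjusted p = 0.0189 by limma). Sirt2 overlaps Nfkbib on the other strand.

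The 3 mitochondrial sirtuins were each higher on average in Npc1-/- mice on scaled TPM, and none passed the test. On TPM as deposited the log2 fold changes of Sirt3, Sirt4 and Sirt5 were 0.083, 0.17 and −0.069. Sirt3, the main deacetylase of mitochondrial enzymes, had 13.1, 13.3 and 18.8 in WT and 16.8, 20.4 and 24.9 in Npc1-/- mice, and its log2 fold change was 0.45 (SE 0.188, adjusted p = 0.222 by limma). Sirt4, which acts on leucine and glutamine metabolism, had 4.55, 7.16 and 5.37 in WT and 6.37, 10.5 and 8.34 in Npc1-/- mice, with a log2 fold change of 0.52 (SE 0.216, adjusted p = 0.215 by limma). Sirt5, which removes succinyl and malonyl groups, had 3.81, 3.39 and 3.06 in WT and 4.34, 4.53 and 3.70 in Npc1-/- mice, with 0.26 (SE 0.131, adjusted p = 0.302 by limma). In all 3 genes the highest WT sample lay above the lowest Npc1-/- sample. Their sum was 24.2 ± 2.93 in WT and 33.3 ± 5.08 in Npc1-/- mice (SD, n = 3). Sirt3 overlaps Ric8a and Psmd13 on the other strand.

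The nuclear sirtuins overlapped between genotypes. Sirt1, the deacetylase of p53 and many transcription factors, was at 3.85 ± 0.247 in WT and 3.57 ± 0.233 in Npc1-/- mice (SD, n = 3). Sirt6, an H3K9 deacetylase of telomeres and glycolytic genes, was at 5.04 ± 0.681 in WT and 5.46 ± 0.957 in Npc1-/- mice (SD, n = 3). Sirt7, which acts in the nucleolus, was at 28.4 ± 6.53 in WT and 30.8 ± 3.67 in Npc1-/- mice (SD, n = 3). Their log2 fold changes were −0.096, 0.099 and 0.14, with intervals of −0.36 to 0.17, −0.28 to 0.48 and −0.29 to 0.57. Sirt7 overlaps Mafg on the same strand.

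Ep300 and Crebbp, the paralogs p300 and CBP that acetylate H3K27 at enhancers, were both lower without overlap, and neither passed the test. Ep300 had 9.01, 8.13 and 9.05 in WT and 7.33, 6.36 and 7.03 in Npc1-/- mice, with a log2 fold change of −0.32 (SE 0.102, adjusted p = 0.130 by limma). Crebbp had 4.2, 4.33 and 4.21 in WT and 3.59, 3.92 and 3.61 in Npc1-/- mice, with −0.18 (SE 0.104, adjusted p = 0.378 by limma). Their summed level was 13.0 ± 0.446 in WT and 10.6 ± 0.320 in Npc1-/- mice (SD, n = 3). The ratio of Ep300 to Crebbp overlapped between genotypes.

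Of the MYST acetyltransferases, Kat6a alone was lower without overlap. Kat6a, which acetylates H3K23 and H3K9 and is the MOZ gene of leukaemia translocations, had 14.8, 14.9 and 14.7 in WT and 13.0, 10.9 and 12.5 in Npc1-/- mice. The WT mice lay within a narrow range (SD 0.0966), and the log2 fold change was −0.28 (SE 0.0958, adjusted p = 0.148 by limma). Its paralog Kat6b was at 5.75 ± 0.390 in WT and 5.68 ± 0.347 in Npc1-/- mice (SD, n = 3). The ratio of Kat6a to Kat6b was 2.75, 2.59 and 2.38 in WT and 2.3, 2.03 and 2.07 in Npc1-/- mice, with no overlap (exact permutation p = 0.1). Kat5, the Tip60 enzyme of DNA repair, was at 24.6 ± 2.36 in WT and 21.8 ± 1.91 in Npc1-/- mice (SD, n = 3), and its log2 fold change was −0.17 with an interval of −0.42 to 0.086. Kat7, which acetylates H3K14, was at 14.5 ± 1.27 in WT and 13.8 ± 1.06 in Npc1-/- mice (SD, n = 3). Kat8, which acetylates H4K16, was at 8.08 ± 0.766 in WT and 8.15 ± 0.0378 in Npc1-/- mice (SD, n = 3). The groups overlapped in both, with log2 fold changes of −0.068 and 0.016. Kat5 overlaps Rnaseh2c and Kat8 overlaps Prss8, each on the other strand, and pseudogenes named after Kat6b and Kat2b could share reads with them.

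The GNAT and type B enzymes overlapped between genotypes. Kat2a, the GCN5 subunit of the SAGA complex, was at 13.1 ± 0.653 in WT and 13.2 ± 1.37 in Npc1-/- mice (SD, n = 3). Kat2b, known as PCAF, had 25.1, 30.7 and 26.1 in WT and 23.0, 31.1 and 42.4 in Npc1-/- mice. Npc1-/- replicate 3 was the highest of the 6, and without it the log2 fold change went from 0.20 to −0.026. Hat1, which acetylates newly made H4, was at 6.18 ± 0.999 in WT and 6.36 ± 0.596 in Npc1-/- mice (SD, n = 3).

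Of the coactivators that recruit acetyltransferases to nuclear receptors, Ncoa1 (ENSMUSG00000020647, chr12:4247362-4477182, minus strand) had the second smallest adjusted p of the set. Its scaled TPM was 8.29, 8.06 and 7.55 in WT and 5.80, 6.07 and 6.26 in Npc1-/- mice. The groups were well apart, and the log2 fold change was −0.37 (SE 0.0946, adjusted p = 0.0829 by limma), with an interval of −0.59 to −0.15. Ncoa3 was at 9.0 ± 0.578 in WT and 8.60 ± 1.59 in Npc1-/- mice (SD, n = 3), with a log2 fold change of −0.075. Ncoa1 overlaps 4921501I09Rik, Gm23756 and Gm22343, and Ncoa3 overlaps Sulf2, each on the other strand. The ratio of Ncoa1 to Ncoa3 overlapped between genotypes.

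**Figure D3:**
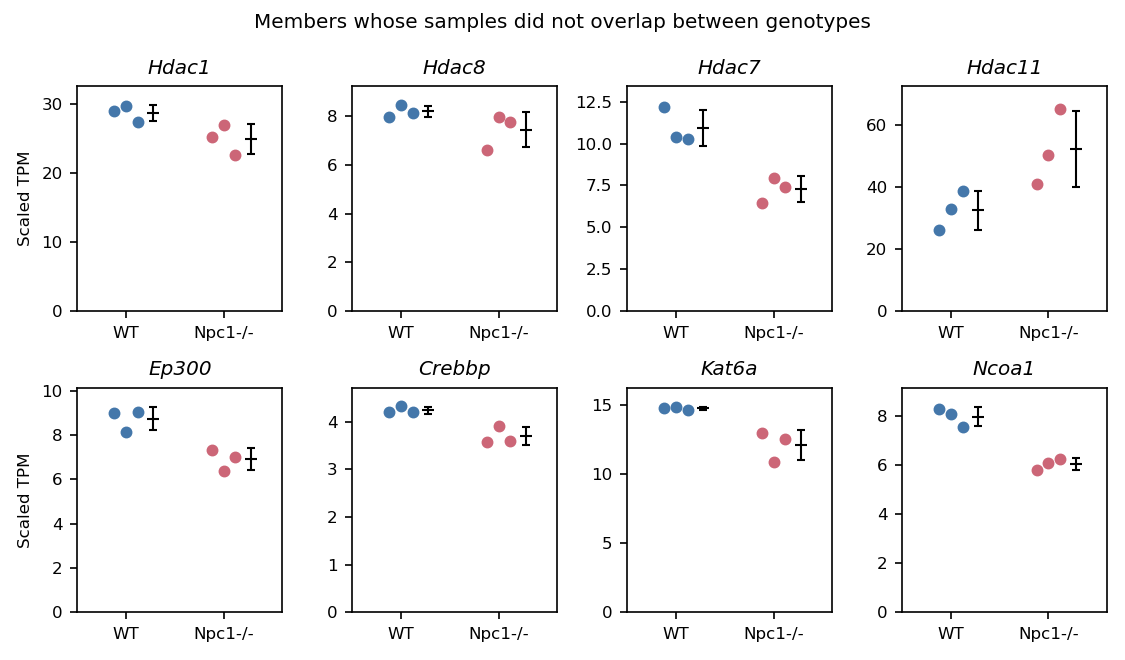
Scaled TPM of the 8 genes whose 3 WT samples (blue) and 3 Npc1-/- samples (red) did not overlap, with each group's mean and SD as a black bar and a linear axis from 0. Hdac11 is higher in Npc1-/- mice and the other 7 are lower, and Hdac8 shows the narrowest gap.

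Long transcripts tended towards lower values in Npc1-/- mice, in the set as in all genes. Spearman's rho between the longest annotated transcript and the log2 fold change was −0.379 across the 30 genes and −0.265 across 15221 genes, a description across genes that share the same libraries. Of the 11 genes with a transcript over 5000 bases, 9 had a log2 fold change below 0, against 7 of the 19 shorter ones. Ep300 (9566 bases), Crebbp (10820 bases), Kat6a (9113 bases) and Ncoa1 (7329 bases) are among the long ones. With a smooth length trend taken out of every sample, the log2 fold change of Ep300 was −0.18, that of Crebbp −0.031, that of Kat6a −0.15 and that of Ncoa1 −0.25. Those of Hdac7 and Hdac11 were −0.49 and 0.65. The median of the set became 0.0056, beside 0.0085 over all genes.

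**Figure D4:**
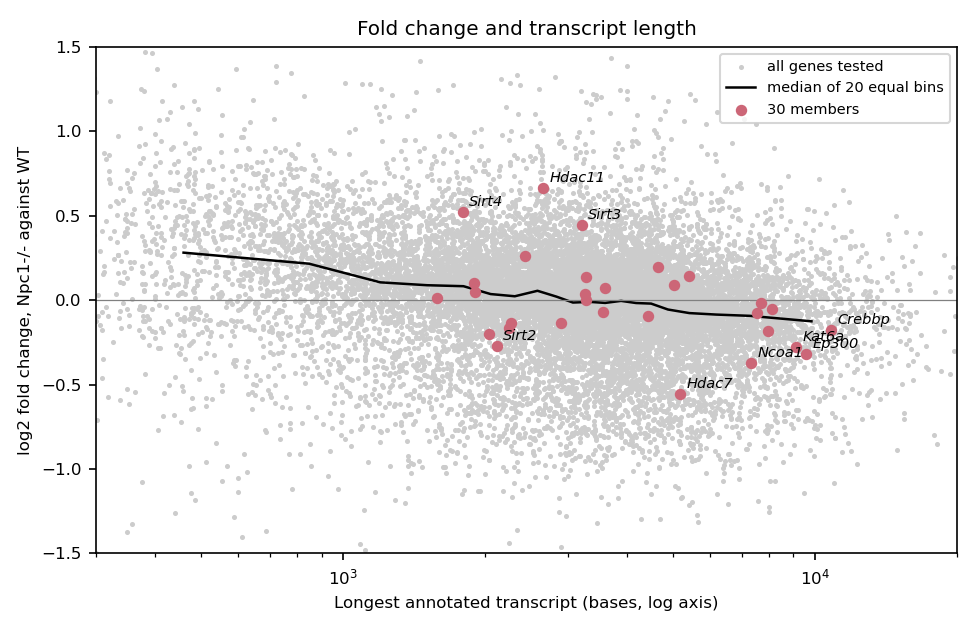
Log2 fold change (Npc1-/- against WT) against the length of the longest annotated transcript in bases (log axis) for the genes tested (grey), their median in 20 bins of equal size (line) and the 30 genes of the set (red), where 170 of 15221 genes lie outside the axes. The line falls with length, and Hdac7 and Hdac11 lie well away from it.

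The genes that work with these enzymes were read from 7 lists, and of 193 genes tested 0 were called by limma, beside 0.813% of all genes, with 30 (15.5%) at an unadjusted p below 0.05, beside 22.2% of all genes. On TPM as deposited the median log2 fold change of every list was lower, from −0.43 for deacetylase complex partners to −0.35 for acetyl-CoA supply. No gene was above 0 there in 4 of the lists, and 7 genes were called lower (Mef2c, Cited2, Cdyl, Slc16a1, Cd38, Sik1 and Camk2g). Of the partners of deacetylase complexes, 31 of 44 were below 0 on scaled TPM (44 of 44 on TPM as deposited) and the median log2 fold change was −0.059. The lowest adjusted p among them was that of Mef2c, a transcription factor that class IIa deacetylases bind, at 19.1, 14.9 and 16.0 in WT and 8.82, 6.23 and 10.6 in Npc1-/- mice, with a log2 fold change of −0.94 (SE 0.193, adjusted p = 0.0589 by limma). Mef2a had −0.39 (SE 0.111, adjusted p = 0.1 by limma), and Mbd3, a subunit of NuRD, had 0.37 (SE 0.125, adjusted p = 0.146 by limma) but was at −0.0046 on TPM as deposited. Mef2c is also known from microglia and endothelium, whose markers were lower too, and their part was not tested.

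Partners of acetyltransferase complexes were below 0 for 26 of 48 (46 of 48 on TPM as deposited), with a median of −0.024. Cited2, which binds p300 and CBP, had 11.4, 9.54 and 11.7 in WT and 5.89, 7.37 and 8.11 in Npc1-/- mice, with a log2 fold change of −0.59 (SE 0.143, adjusted p = 0.0778 by limma). The SAGA subunits Taf10 and Tada3 had log2 fold changes of 0.31 and 0.27, without overlap, but −0.065 and −0.088 on TPM as deposited. Readers of acetyl-lysine were below 0 for 21 of 30 (30 of 30 on TPM as deposited), with a median of −0.067 that became 0.017 once the length curve was removed. Mllt3 and Dpf2 had the smallest adjusted p there, with log2 fold changes of −0.46 and −0.26.

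The list of other lysine acetyltransferases was drawn loosely and also holds a corepressor and an RNA acetyltransferase. In it 7 of 14 genes were above 0 on scaled TPM and 1 of 14 on TPM as deposited. Cdyl, a chromodomain corepressor, had 12.3, 14.4 and 12 in WT and 8.95, 7.90 and 8.13 in Npc1-/- mice, and its log2 fold change was −0.60 (SE 0.108, adjusted p = 0.0538 by limma). Nat10, an RNA acetyltransferase, and Elp3, the Elongator subunit, had log2 fold changes of 0.48 and 0.21, without overlap, but 0.14 and −0.15 on TPM as deposited.

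The genes that supply acetyl-CoA had a median log2 fold change of −0.011, with 13 of 27 above 0 (2 of 27 on TPM as deposited). Acss2, which makes acetyl-CoA from acetate, had 32.2, 34.0 and 33.6 in WT and 42.5, 43.9 and 44.9 in Npc1-/- mice. All Npc1-/- mice were above all WT mice, with a log2 fold change of 0.39 (SE 0.0758, adjusted p = 0.0567 by limma) on scaled TPM, but it was 0.020 on TPM as deposited (adjusted p = 0.943 by limma). Aspa, which frees acetate from N-acetylaspartate and is also on the list of mature oligodendrocyte markers, had 19.3, 24.2 and 30.8 in WT and 35.8, 48.9 and 60.3 in Npc1-/- mice, with a log2 fold change of 0.94 (SE 0.226, adjusted p = 0.0755 by limma). Slc16a1, a carrier of monocarboxylates, had 104, 70.4 and 54.5 in WT and 39.7, 50.9 and 36.9 in Npc1-/- mice, with −0.80 (SE 0.238, adjusted p = 0.111 by limma). It is known from endothelium as well as oligodendrocytes, and the part of the lower endothelial markers was not tested.

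Of the genes that supply or use NAD+, the co-substrate of sirtuins, 9 of 15 were below 0 (15 of 15 on TPM as deposited). Pnp, Cd38 and Parp1 had the smallest adjusted p. Cd38, an NAD+ glycohydrolase, had 4.07, 3.57 and 2.79 in WT and 1.63, 2.29 and 2.11 in Npc1-/- mice, with a log2 fold change of −0.66 (SE 0.175, adjusted p = 0.0895 by limma). Pnp, a purine nucleoside phosphorylase, had −0.51 without overlap, and Parp1, the poly(ADP-ribose) polymerase of DNA repair, had −0.23 with overlap. Of the kinases, 14-3-3 proteins and binding partners that set the location and activity of deacetylases, 12 of 16 were below 0 (16 of 16 on TPM as deposited). Sik1, Camk2d and Camk2g, kinases that phosphorylate class IIa deacetylases, had log2 fold changes of −0.52, −0.24 and −0.42.

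**Figure D5:**
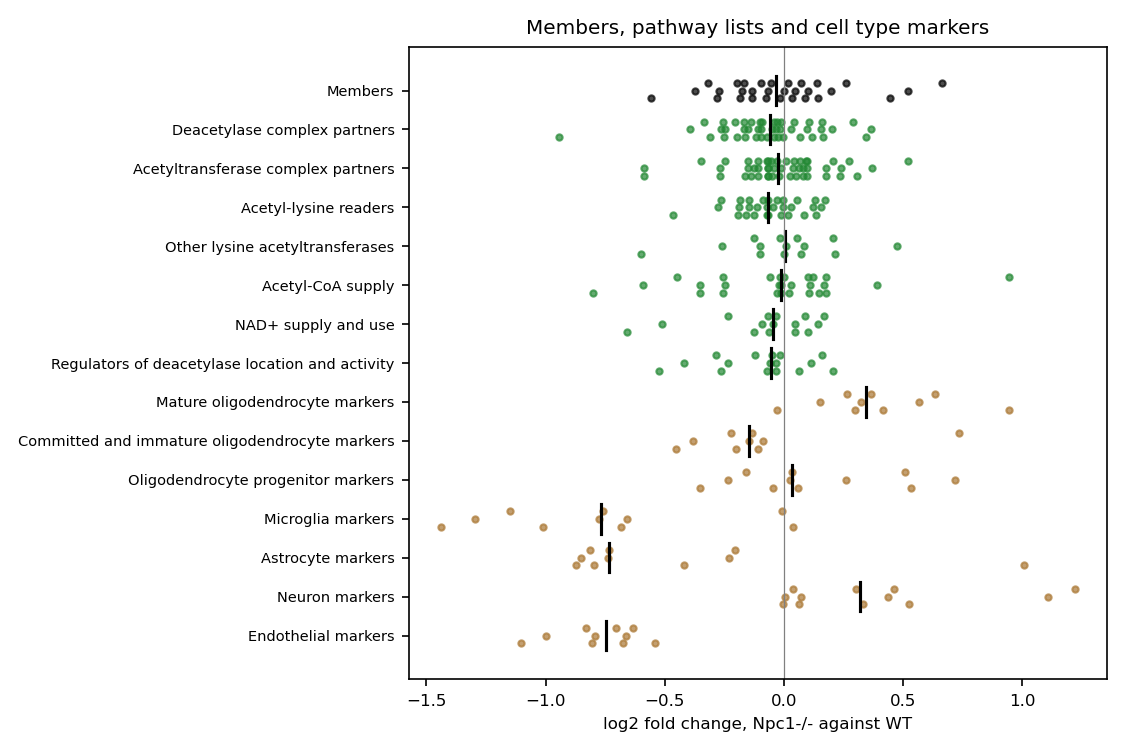
Log2 fold change (Npc1-/- against WT) of each gene tested in the set of 30 (black), in the 7 pathway lists (green) and in the 7 lists of cell type markers (brown), a point for each gene, with the list's median as a bar. On the scaled TPM plotted here, the set and the pathway lists centre near 0 and mature oligodendrocyte and neuron markers above it, none of which holds on TPM as deposited, while endothelial, microglial and astrocyte markers centre below 0 on both scales.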

How the data were processed

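RNA of O4-positive cells from 3 WT and 3 Npc1-/- mice was measured. The authors deposited TPM (abundance scaled to a fixed total, with 2 decimals) and FPKM (a measure per kilobase and per library), a column per sample, for 55492 genes. The paper's methods name bbduk, STAR and featureCounts on GRCm38, whereas the submitters' processing notes list cutadapt 2.3, STAR 2.7.8a and RSEM 1.3.3. How TPM and FPKM were made, and whether strand was used, is not given in the sources used here. Because counts were not among the files used, the count test of the study was replaced.

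TPM was divided by median-of-ratios size factors over 18690 genes, and log2(scaled TPM + 0.5) was fitted for the 15245 genes whose mean TPM reached 0.5 using limma 3.58.1 (trend, two-sided, genotype alone) in R 4.3.3. Depth was estimated from the steps of low FPKM values in genes with a single transcript. Positions and lengths came from GENCODE M21 (GRCm38), which matched 55141 identifiers (99.4%). The scripts were tested on simulated data. There, limma recovered 0%, 49% and 78.5% of 200 genes changed by 0.5, 1 and 1.5 on the log2 scale. Python 3.11.15 with pandas 2.3.3 and scipy 1.17.1 served for the rest. The p-values of limma set a difference against the spread between 3 mice a group, drawn towards a trend with level over all genes tested. The alternatives tried were other scalings, pseudocounts, filters, variance estimates, FPKM, a transcript length curve (span 0.3), the replicate number as a block, and each mouse left out.

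The 30 genes and all lists were chosen with earlier results of these data known. Class sums and ratios of paralogs were added as descriptions. All 30 are named, with the genes called and up to 3 of smallest adjusted p per pathway list, apart from 1 gene that is not reported here. Of the marker lists, genes are named as examples, chosen after their values were seen. Mideas and Tmem2 were not found in the table under those symbols.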

Additional observations from a re-analysis of the deposited data

How the results depend on the processing

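None of the 30 genes was called under quantile normalization, FPKM, pseudocounts of 0.1 and 1, no filter, no variance trend, a robust variance, the transcript length curve or with any mouse left out. On TPM as deposited 2 were called (Hdac7 and Sirt2), at a mean TPM of at least 5, which tests fewer genes, 1 (Hdac7, of 23 tested), and under the replicate block 4 (Hdac7, Hdac11, Sirt3 and Sirt4). Over all genes the calls went from 124 to 924 (54 higher, 870 lower) on TPM as deposited, 225 by quantile normalization, 21 with no filter, 447 at a mean TPM of at least 5, 42 without a trend and 2011 (1143 higher, 868 lower) with the block. With a mouse left out they ran from 4 to 486, the highest without Npc1-/- replicate 3 and between 4 and 19 without any other mouse. Of the 193 pathway genes 7 were called on TPM as deposited, 4 at a mean TPM of at least 5 and 11 with the block, and 0 to 1 with a mouse left out. The cause of these differences was not tested.

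Replicate numbers occur in both genotypes, but deviations from the group means correlated between same-numbered samples at 0.414, 0.0602 and 0.326, and the labels tie the numbers to nothing shared, so the block is no part of the design. Every sample correlated best with its own number, a hint from the data only.

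On TPM as deposited the median of the 30 was −0.37, beside −0.33 over all genes, and 11 genes changed sign: Hdac2 −0.33, Hdac3 −0.29, Hdac5 −0.23, Hdac6 −0.24, Sirt5 −0.069, Sirt6 −0.24, Sirt7 −0.23, Kat2a −0.36, Kat2b −0.17, Hat1 −0.30 and Kat8 −0.34. By quantile normalization Hdac2 −0.026 and Kat6b 0.033 did, and with the length curve Hdac4 0.071, Hat1 −0.0071, Kat6b 0.11, Kat8 −0.065 and Ncoa3 0.045. Leaving out a mouse turned the sign of 12 genes, whose log2 fold changes ran as follows: Hdac2 −0.047 to 0.13, Hdac4 −0.26 to 0.13, Hdac5 −0.055 to 0.29, Hdac6 −0.049 to 0.20, Sirt6 −0.0080 to 0.24, Sirt7 −0.064 to 0.27, Kat2a −0.049 to 0.083, Kat2b −0.026 to 0.41, Hat1 −0.086 to 0.12, Kat6b −0.062 to 0.028, Kat8 −0.042 to 0.083 and Ncoa3 −0.19 to 0.070. The other 18 kept theirs with every mouse left out. Among them are the 8 genes whose groups did not overlap. For these the sign was all but fixed beforehand, since such groups stay apart with any mouse left out.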
